A study of Mus musculus with 5 samples.

Results

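The genes described are 41 genes of mitochondrial and peroxisomal beta-oxidation, picked by symbol from the 24421 gene symbols counted in kidney cortical tissue of *Fnip1* null and wildtype mice. They comprise 6 genes of the carnitine shuttle, 10 acyl-CoA dehydrogenases, 5 genes of the later mitochondrial steps, 4 auxiliary or related enzymes, 3 electron transfer flavoprotein genes, 11 peroxisomal genes and 2 genes of ketone body use. All 41 were in the counts, and all 41 passed the filter on low counts that left 13874 genes to test, *Abcd2* through its counts in the *Fnip1* null mice alone.

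RNAseq was performed on frozen cortical kidney tissue of 3 *Fnip1*-/- mice (8637, 9210 and 9121) and 2 *Fnip1*+/+ mice (9055 and 9056), all labelled C57BL6J, with 1 library per mouse. The mutant allele came from ENU mutagenesis and is carried in every cell of the body, so a difference in kidney tissue need not arise in kidney cells. The labels name no treatment and state neither age nor sex. The study's text also calls the controls *Fnip1*+/-, and they are called wildtype here, after their labels. The comparison asks how disruption of *Fnip1*, whose protein binds Folliculin and the energy sensor AMPK, relates to expression of the fatty acid oxidation genes.

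Beta-oxidation shortens fatty acids from the carboxyl end by repeated rounds of dehydrogenation, hydration, a further dehydrogenation and thiolytic cleavage, each round releasing acetyl-CoA. Long-chain acyl groups enter mitochondria as carnitine esters, while very long-chain, branched and dicarboxylic fatty acids are shortened in peroxisomes, which pass medium-chain products on to mitochondria. Proximal tubule cells of the renal cortex depend on fatty acids as fuel for solute transport and are rich in both organelles.

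Gene counts per mouse ran from 15799114 to 19132145, and 3 counts in a mouse corresponded to between 0.158 and 0.186 normalized CPM (counts scaled to a common library size by TMM). mRNA expression of *Fnip1* was 51.8 and 48.7 normalized CPM in the wildtype mice, 9055 and 9056, and 21, 16.9 and 16 in the null mice, 8637, 9210 and 9121, a log2 fold change of -1.48 (SE 0.138, adjusted p = 0.033, edgeR's quasi-likelihood test). Without mouse 9210, 9055 or 9056 its adjusted p-value was 0.126, 0.213 and 0.491, with log2 fold changes of -1.53 to -1.44. *Fnip1* null mouse 9121 stood apart in its sex-chromosome transcripts. *Xist* was at 314 normalized CPM in this mouse and between 0.172 and 1.41 in the other 4, and the Y-linked genes *Ddx3y*, *Uty* and *Kdm5d* had no count in it and were between 17.3 and 52.2 in the others. This is the pattern of a female in mouse 9121 and of males in the other 4, so sex varied within the *Fnip1* null group alone. Values without mouse 9121 are therefore given beside the results that rest on it.

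In the sentences that follow, values of single mice are given in the order 8637, 9210, 9121 for *Fnip1* null and 9055, 9056 for wildtype, log2 fold changes are *Fnip1* null over wildtype, and adjusted p-values are those of edgeR's quasi-likelihood test with Benjamini-Hochberg adjustment over the 13874 genes unless another test is named. RNAseq averages over all cells of the tissue, so that fewer cells of a type and less RNA per cell cannot be told apart. Nothing in the labels says how the mice were related, and p-values measure only the spread between these 5 mice. The 5 mice can be split into 3 and 2 in 10 ways, so the smallest p-value an exact permutation test could give for any gene is 0.1.

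Of the 41 beta-oxidation genes, log2 fold changes were negative for 32 (78%) and positive for 9, and their median was -0.24. Over all 13874 genes tested, 49.5% were negative and 50.5% positive, and the median was 0. Normalized CPM was lower in every *Fnip1* null mouse than in both wildtype mice for 20 genes (48.8%) and higher for 7 (17.1%), and the groups overlapped for 14. Over all genes tested, 45.9% did not overlap, 23% being lower and 22.9% higher. The differences were small for most genes, and the largest negative log2 fold changes were those of *Crot* (-1.23), *Acox3* (-1.01), *Ehhadh* (-0.83), *Acad12* (-0.65) and *Bdh1* (-0.64), while the largest positive ones were those of *Abcd2* (2.73), *Cpt1c* (0.75), *Cpt1b* (0.67), *Acaa2* (0.67) and *Hadha* or *Hadhb* (0.24 each). Log2 fold changes were negative for 9 of the 10 acyl-CoA dehydrogenase genes, and of the 5 genes of the later mitochondrial steps 3 had a positive and 2 a negative one.

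None of the 41 genes passed an FDR of 5% in edgeR's quasi-likelihood test, in which adjusted p-values of these genes ran from 0.0506 for *Acad12* to 0.976 for *Echs1* and 94 of all genes tested (0.678%) passed. An unadjusted p-value under 0.05 was obtained for 19 of the 41 (46.3%), against 25.1% of all genes tested. At an FDR of 10%, 7 of the 41 (17.1%) passed, namely *Acaa2* upward and *Crot*, *Acads*, *Acad9*, *Acad12*, *Abcd3* and *Ehhadh* downward, against 6.76% of all genes (4.15% upward and 2.61% downward). At an FDR of 5%, edgeR's exact test and its likelihood ratio test each called 8 (19.5%, against 9.82% and 10.6% of all genes), *Acaa2* and *Abcd2* higher and *Crot*, *Acads*, *Acad9*, *Acad10*, *Acad12* and *Ehhadh* lower in *Fnip1* null mice. Over all genes these tests called 6.18% and 6.81% as higher and 3.63% and 3.8% as lower. *Abcd2*, which could be tested only through its counts in *Fnip1* null mice, is one of these 8, and it is also one of the 13 and 17 in the sentences that follow. DESeq2 called these 8 and *Cpt2*, *Acadm*, *Abcd3*, *Scp2* and *Bdh1* as lower, 13 in all (31.7%, against 10.3% of all genes, 6.18% higher and 4.14% lower). The quasi-likelihood test without mouse 8637 called 17 (41.5%, against 20% of all genes), 2 higher and 15 lower (10% and 9.98% of all genes). The same test without mouse 9121 called 1, *Bdh1* (2.44%, against 1.41% of all genes, 0.469% as lower), and without 9210, 9055 or 9056 it called none of the 41 and none of all genes. The exact test also called 17 without mouse 8637 (25.2% of all genes) and 9 without mouse 9121 (8.18% of all genes). Mouse 8637 was the *Fnip1* null mouse nearest to wildtype in 27 of the 32 negative genes and 7 of the 9 positive ones. Leaving it out therefore widened most differences, and p-values and counts without it, here and below, are no support for a difference.

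**Figure D1:**
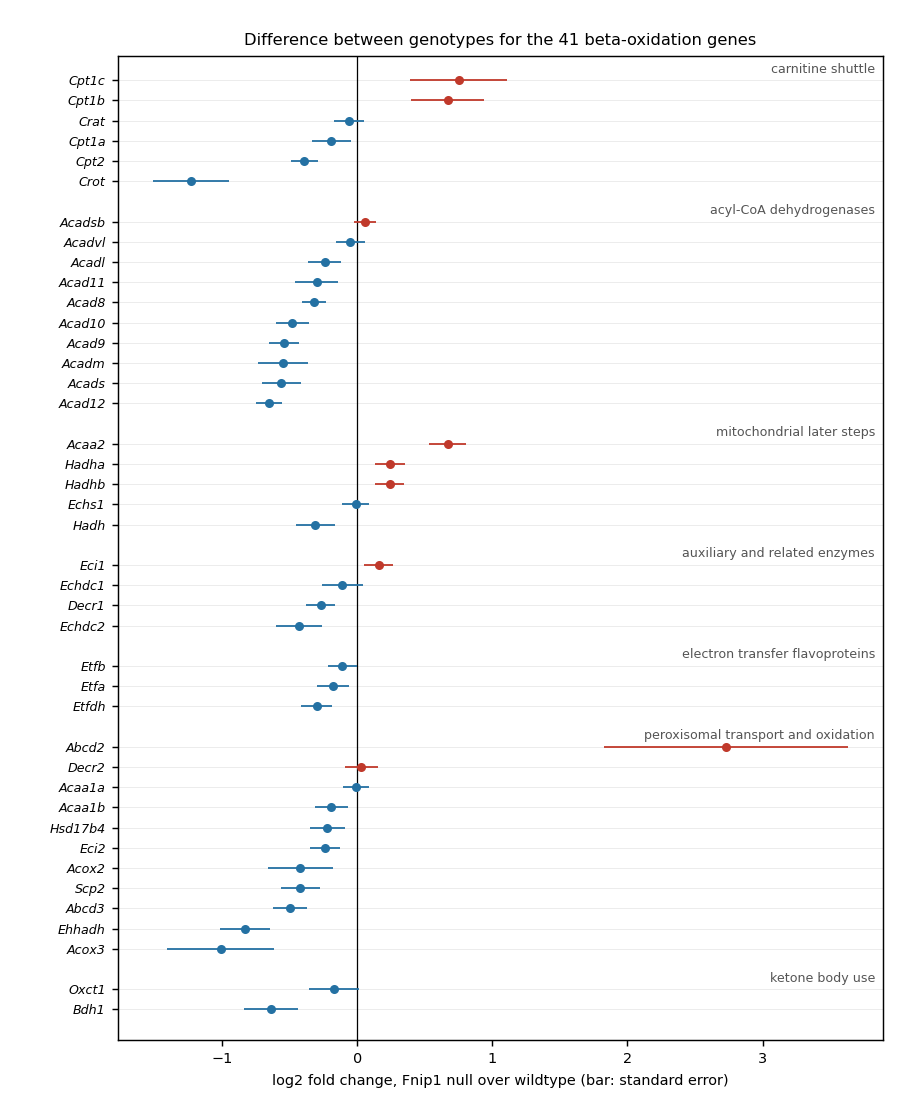
Log2 fold change, *Fnip1* null over wildtype, of each of the 41 beta-oxidation genes grouped by role, with bars for the standard error (red for positive and blue for negative values, n = 3 and 2 mice). Of the 41 points, 32 lie left of zero, with *Crot* at -1.23 as the lowest, and the widest bar is that of *Abcd2* at 2.73.

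The carnitine shuttle moves acyl groups between the cytosol, peroxisomes and mitochondria, and its 6 genes had log2 fold changes from -1.23 to 0.75 with a median of -0.12. *Crot* (chr5:8966033-8997324, minus strand, GRCm38) encodes the peroxisomal carnitine octanoyltransferase, which exports medium-chain products of peroxisomal oxidation as carnitine esters. It was at 455, 309 and 222 normalized CPM in *Fnip1* null and at 761 and 782 in wildtype mice. Every *Fnip1* null mouse lay below both wildtype mice, and mouse 8637 lay nearest to them. The means were 328 ± 118 (SD, n = 3) and 772 ± 14.4 (SD, n = 2), a 2.35-fold lower mean level (log2 fold change -1.23, SE 0.28, adjusted p = 0.0863, and 0.00238 in edgeR's exact test). Without mouse 8637, the one nearest to wildtype, the log2 fold change was -1.54 (adjusted p = 0.00748). It was -1.02 (adjusted p = 0.069) without mouse 9121 and -1.19 (adjusted p = 0.28) without 9210. Without 9055 or 9056 it was -1.25 and -1.21.

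*Cpt2*, the inner-membrane carnitine palmitoyltransferase that restores acyl-CoA in the matrix, was also lower without overlap, at 210, 182 and 195 against 248 and 266 normalized CPM (log2 fold change -0.39, adjusted p = 0.101). *Cpt1a*, the outer-membrane enzyme of most non-muscle tissues and the point at which malonyl-CoA restrains entry, overlapped between the groups, at 827, 657 and 686 against 811 and 840 (log2 fold change -0.19, adjusted p = 0.446). *Crat*, the carnitine acetyltransferase, had values from 203 to 239 in *Fnip1* null and 216 and 234 in wildtype mice, and its log2 fold change of -0.06 was 0.10 when libraries were scaled by their totals alone. Of the shuttle genes, *Crot* had the largest difference between the groups.

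*Cpt1b*, the muscle and brown fat form of the entry enzyme, was at 7.48, 4.82 and 8.13 against 4.6 and 4 normalized CPM, and *Cpt1c*, the form known mainly from neurons, was at 1.18, 1.66 and 1.95 against 0.808 and 1.09. In both genes every *Fnip1* null mouse lay above both wildtype mice, by little in the lowest of them. Their log2 fold changes were 0.67 (SE 0.268, adjusted p = 0.191) and 0.75 (SE 0.36, adjusted p = 0.248), and *Cpt1c* rested on 20, 28 and 37 counts against 13 and 19. Without mouse 9121, the highest in both, they were 0.52 and 0.57 (adjusted p = 0.342 and 0.48). Of the *Cpt1b* exon bases, 81.4% are shared with the readthrough transcript *Gm44502*, so reads there may have been assigned to neither. Skeletal muscle markers summed to between 1.087 and 1.988 normalized CPM over the 5 mice, and *Myh4* had no count in any. Brown adipocyte markers summed to 17.68, 30.2 and 29.2 against 15.04 and 12.01 over 6 genes and did not overlap between the genotypes. Most of this sum was *Cox7a1*, a respiratory chain subunit gene, at 17.3, 23.8 and 26 against 14.7 and 11.8, while *Ucp1*, which defines brown fat, had 0, 18 and 6 counts against 1 and 0. The part of such cells in the *Cpt1b* values was not tested.

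Acyl-CoA dehydrogenases carry out the opening step of each mitochondrial round, each for a range of chain lengths, and 9 of these 10 genes were on the negative side, with a median log2 fold change of -0.40 and a range of -0.65 to 0.06. For 7 of the 10, every *Fnip1* null mouse lay below both wildtype mice, against 23% of all genes tested, and none of the 10 passed an FDR of 5%. *Acad12* (chr5:121596775-121618938, minus strand), a less studied family member, was at 31.1, 28.7 and 30.4 against 45.2 and 49.2 normalized CPM. The *Fnip1* null mice lay close together, at 30.1 ± 1.21 (SD, n = 3) against 47.2 ± 2.84 (SD, n = 2), a 1.57-fold lower mean. Its log2 fold change was -0.65 (SE 0.0948), and its adjusted p-value of 0.0506 was the lowest among the 41 genes (0.00047 in edgeR's exact test and 0.000195 in DESeq2). Leaving out single mice gave log2 fold changes between -0.71 (without 9055) and -0.59 (without 9056). Its adjusted p-value was 0.0116 without 8637, 0.0542 without 9121 and 0.216 without 9210. The neighbouring paralog *Acad10* (chr5:121621026-121660514) was at 93.1, 73.1 and 77.8 against 108 and 119 (log2 fold change -0.48, adjusted p = 0.102). Of the 50-base stretches of *Acad12*, 17.3% also occur in transcripts of other genes, among which *Acad10* shares the most.

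The promoter of *Acad12* is shown because this gene had the lowest adjusted p-value. The sequences of 250 bases before the annotated start are RefSeq's on GRCm38.p6, read 5′ to 3′ on the gene's strand, in lower case where no searched motif occurs. The annotated start follows the last base shown.
*Acad12* promoter, chr5:121618939-121619188, minus strand: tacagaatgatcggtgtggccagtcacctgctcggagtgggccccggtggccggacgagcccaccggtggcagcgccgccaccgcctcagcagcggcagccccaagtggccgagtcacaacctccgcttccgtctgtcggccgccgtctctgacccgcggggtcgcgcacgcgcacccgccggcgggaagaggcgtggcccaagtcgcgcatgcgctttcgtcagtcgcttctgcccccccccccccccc
It holds 31 CpG dinucleotides and 73.2% G and C, against medians of 6 and 52.4% over 32851 mouse promoters and 12 and 59.2% over the 38 of the beta-oxidation genes.

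*Acadm*, the medium-chain dehydrogenase, was at 911, 729 and 1030 against 1220 and 1380 normalized CPM, with means of 891 ± 153 (SD, n = 3) and 1300 ± 114 (SD, n = 2). The groups did not overlap, and mouse 9121 lay nearest to wildtype (log2 fold change -0.55, SE 0.186, adjusted p = 0.147). *Acads*, which acts on short chains, was at 270, 216 and 207 against 322 and 360 (log2 fold change -0.56, SE 0.141, adjusted p = 0.0985). *Acad9*, a dehydrogenase of long chains whose product also takes part in assembly of respiratory complex I, was at 91.6, 77.6 and 90.3 against 117 and 134 (log2 fold change -0.54, SE 0.111, adjusted p = 0.0764). Without mouse 8637 the adjusted p-values were 0.0105 for *Acads*, 0.0222 for *Acad9* and 0.0864 for *Acadm*. Without mouse 9121 they were 0.137, 0.0811 and 0.126 in the same order. *Acadl*, also for long chains, had a log2 fold change of -0.24 (adjusted p = 0.269), and *Acadvl*, for very long chains, had one of -0.05 (adjusted p = 0.809), which was 0.11 with scaling by library totals alone.

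Of the members that act on branched chains from amino acids, *Acad8*, the isobutyryl-CoA dehydrogenase of valine breakdown, was at 112, 108 and 100 against 133 and 134 normalized CPM (log2 fold change -0.32, adjusted p = 0.108). *Acadsb*, the short/branched-chain dehydrogenase of isoleucine breakdown, was the only dehydrogenase gene with a positive log2 fold change, 0.06, at 200, 194 and 195 against 193 and 186 (adjusted p = 0.703). Its values did not overlap between the groups, although the lowest *Fnip1* null and the highest wildtype mouse lay next to each other. *Acad11*, a dehydrogenase gene outside this branched-chain set, ran from 252 to 341 in *Fnip1* null and was 322 and 385 in wildtype mice (log2 fold change -0.30, adjusted p = 0.288).

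The promoter of *Acadm* is shown as the dehydrogenase of highest level per length that also holds a nuclear receptor half-site, AGGTCA, searched on both strands. Capitals mark this hexamer, which here lies on the opposite strand and so reads TGACCT, 249 bases before the start.
*Acadm* promoter, chr3:153944644-153944893, minus strand: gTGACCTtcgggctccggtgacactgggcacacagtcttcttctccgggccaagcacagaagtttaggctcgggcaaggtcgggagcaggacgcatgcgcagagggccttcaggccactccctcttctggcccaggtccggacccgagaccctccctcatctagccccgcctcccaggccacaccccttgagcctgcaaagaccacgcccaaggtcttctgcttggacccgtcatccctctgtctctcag
Promoter sequences matched 34 of the 41 genes, with 38 starts. AGGTCA was in the promoters of 6 of them (*Acadm*, *Acadvl*, *Cpt1a*, *Cpt1c*, *Echs1* and *Scp2*) and in 14% of all promoters of the same length. The DR1 element, the form bound by PPAR and RXR, was searched as AGGNCA repeated directly with 1 base between, and was in none of the 34 and in 0.338% of all promoters, and the ERR element TCAAGGTCA, which contains the half-site, was in none and in 0.387%. The E-box CACGTG was in 1, *Echdc2*, and in 6.02% of all promoters, and the longer TCACGTGA, which contains it, was in none and in 0.785%. These matches are letters in a short window and were not linked to binding.

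Of the 5 genes of the later mitochondrial steps, none of which passed an FDR of 5%, *Acaa2*, *Hadha* and *Hadhb* had positive and *Hadh* and *Echs1* negative log2 fold changes, with a median of 0.24. Every *Fnip1* null mouse lay above both wildtype mice for 3 of the 5 and below them for 1, against 22.9% and 23% of all genes tested. *Acaa2*, the mitochondrial 3-ketoacyl-CoA thiolase that cleaves off acetyl-CoA, was at 346, 448 and 419 against 246 and 264 normalized CPM. The lowest *Fnip1* null mouse, 8637, lay above both wildtype mice, and the means were 404 ± 52.5 (SD, n = 3) and 255 ± 12.6 (SD, n = 2), a 1.59-fold higher mean (log2 fold change 0.67, SE 0.138, adjusted p = 0.0764). The adjusted p-value was 0.0119 in edgeR's exact test, 0.00091 in DESeq2, 0.00857 without mouse 8637 and 0.0917 without mouse 9121. *Hadha* and *Hadhb* encode the alpha and beta subunits of the trifunctional protein, which carries out hydration, the later dehydrogenation and thiolysis of long chains. *Hadha* was at 296, 303 and 352 against 268 and 270, and *Hadhb* was at 373, 378 and 415 against 315 and 341. Both had a log2 fold change of 0.24 (adjusted p = 0.242 and 0.21), with no overlap between the groups and mouse 9121 highest in each. Without mouse 9121 the log2 fold changes were 0.16 and 0.2 (adjusted p = 0.482 and 0.413). Both stayed positive under every scaling, filter and left-out mouse tried.

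*Hadha* (chr5:30118304-30155162, minus strand) and *Hadhb* (chr5:30155248-30184593, plus strand) lie head to head, and the 85 bases between their annotated exons are shown because both genes had the same log2 fold change.
Stretch between *Hadha* and *Hadhb*, chr5:30155163-30155247, plus strand: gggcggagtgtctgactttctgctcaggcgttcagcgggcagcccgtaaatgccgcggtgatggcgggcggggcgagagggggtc
*Hadh*, the 3-hydroxyacyl-CoA dehydrogenase for medium and short chains, was at 694, 611 and 553 against 725 and 808 normalized CPM (log2 fold change -0.31, adjusted p = 0.237). *Echs1*, the short-chain enoyl-CoA hydratase, was at 318, 310 and 311 against 295 and 334 (log2 fold change -0.01, adjusted p = 0.976). The sign for *Echs1* depended on the scaling, with 0.16 when library totals alone were used.

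**Figure D2:**
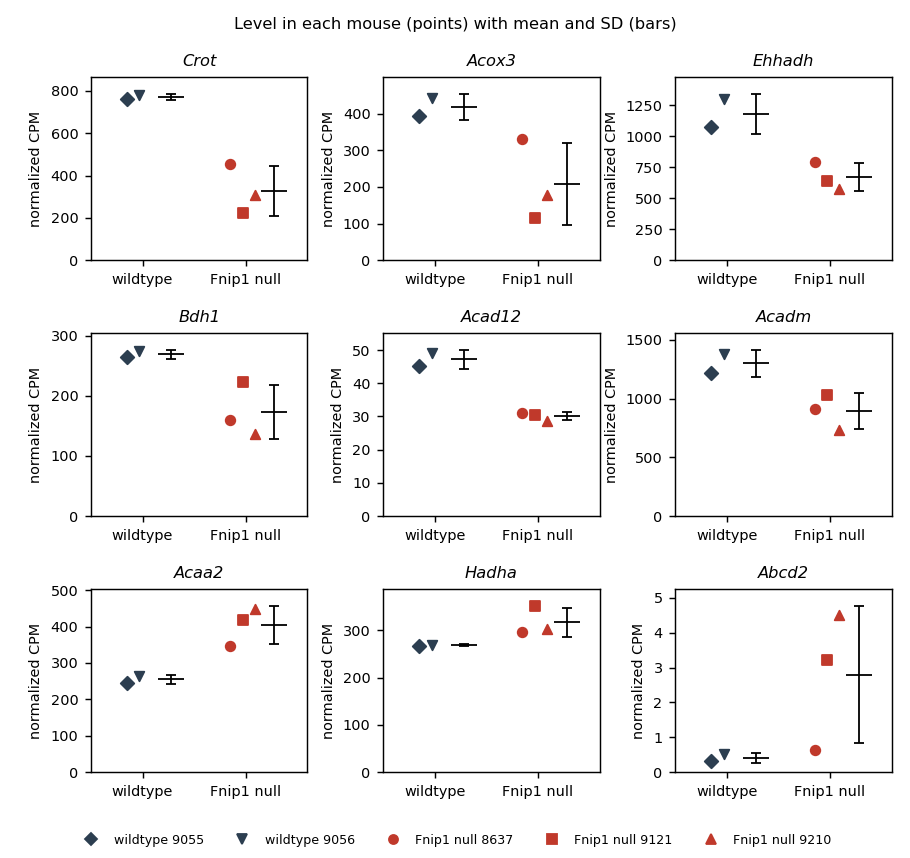
Normalized CPM in each mouse (points) with the group mean and SD (bars) for 9 beta-oxidation genes, each on its own linear axis from 0. Wildtype mice lie above all *Fnip1* null mice for *Crot*, *Acox3*, *Ehhadh*, *Bdh1*, *Acad12* and *Acadm* and below them for *Acaa2*, *Hadha* and *Abcd2*, with *Crot* at 761 and 782 in wildtype and 222 to 455 in *Fnip1* null mice.

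Auxiliary enzymes handle unsaturated chains and side products, and none of these 4 genes had an adjusted p-value under 0.189. *Decr1*, the dienoyl-CoA reductase, was at 263, 243 and 233 against 277 and 317 normalized CPM (log2 fold change -0.27, adjusted p = 0.19), and *Echdc2* was at 168, 143 and 112 against 177 and 203 (log2 fold change -0.43, adjusted p = 0.189). Without mouse 9121 the log2 fold change of *Echdc2* was -0.29 (adjusted p = 0.264). *Eci1*, an enoyl-CoA isomerase, had a log2 fold change of 0.16, and *Echdc1*, a cytosolic enzyme that removes ethylmalonyl-CoA, had one of -0.11 that became 0.06 with scaling by library totals alone. *Rnf146* covers 75.9% of the exon bases of *Echdc1* on the opposite strand, and *Dvl2* 42.9% of those of *Acadvl*, so reads of these pairs may not be told apart.

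The electron transfer flavoproteins pass electrons from the dehydrogenases to ubiquinone, and their 3 genes had negative log2 fold changes of -0.18 (*Etfa*), -0.11 (*Etfb*) and -0.30 (*Etfdh*). *Etfdh*, the membrane oxidoreductase, was the one without overlap, at 257, 225 and 211 against 275 and 293 normalized CPM (adjusted p = 0.176). *Etfa* was at 492, 449 and 427 against 491 and 541, and *Etfb* at 390, 369 and 374 against 379 and 438, so that their groups overlapped. The log2 fold change of *Etfb* became 0.05 with scaling by library totals alone, and 53% of its exon bases are shared with *Gm45233*.

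Among the 11 peroxisomal genes, the log2 fold change was negative for 9, with a median of -0.24 and a range of -1.01 to 2.73, and 5 were lower in every *Fnip1* null than in both wildtype mice (23% of all genes tested). *Ehhadh* (chr16:21761287-21787807, minus strand) encodes the bifunctional enzyme that hydrates and dehydrogenates peroxisomal enoyl-CoA, including dicarboxylic acids. It was at 792, 573 and 639 against 1070 and 1300 normalized CPM. The groups did not overlap, and the means were 668 ± 112 (SD, n = 3) and 1180 ± 161 (SD, n = 2), a 1.77-fold lower mean (log2 fold change -0.83, SE 0.183, adjusted p = 0.0832, and 0.00489 in edgeR's exact test). The adjusted p-value was 0.0115 without mouse 8637 and 0.115 without mouse 9121. Its promoter is shown because it was, of the 5 genes with the largest negative log2 fold changes, the most abundant per length. No searched motif occurs in it.
*Ehhadh* promoter, chr16:21787835-21788084, minus strand: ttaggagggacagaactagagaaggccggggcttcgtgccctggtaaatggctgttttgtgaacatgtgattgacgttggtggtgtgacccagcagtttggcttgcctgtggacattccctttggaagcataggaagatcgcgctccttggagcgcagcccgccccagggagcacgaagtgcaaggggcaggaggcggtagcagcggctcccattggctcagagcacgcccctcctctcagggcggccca

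*Acox3* (chr5:35583040-35615352, plus strand), the acyl-CoA oxidase for methyl-branched chains, was at 332, 178 and 116 against 393 and 444 normalized CPM. All *Fnip1* null mice lay below both wildtype mice, but their values spread widely, with an SD of 111 around a mean of 208 (n = 3) against 419 ± 35.5 (SD, n = 2). The log2 fold change was -1.01 (SE 0.398, adjusted p = 0.187), and it was -1.51 (adjusted p = 0.0105) without mouse 8637 and -0.72 (adjusted p = 0.197) without mouse 9121. *Acox2*, the oxidase for bile acid intermediates, had another order among the mice, at 80.7, 64.1 and 116 against 126 and 106 (log2 fold change -0.42, adjusted p = 0.321), with mouse 9121 between the wildtype mice. Without mouse 9121 its log2 fold change was -0.68 (adjusted p = 0.0779). *Abcd3*, which imports acyl-CoA, was at 484, 402 and 438 against 591 and 657 (log2 fold change -0.50, SE 0.126, adjusted p = 0.0989). Its adjusted p-value was 0.021 without mouse 8637 and 0.145 without mouse 9121. *Scp2*, whose product is a sterol carrier and a thiolase for branched chains, was at 875, 766 and 734 against 992 and 1120 (log2 fold change -0.42, adjusted p = 0.152).

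*Eci2*, an enoyl-CoA isomerase, was at 129, 111 and 107 against 131 and 141 normalized CPM (log2 fold change -0.24, adjusted p = 0.239), and the remaining 4 peroxisomal enzymes with close paralogs or partners differed little. *Hsd17b4*, the D-bifunctional protein that acts in parallel to *Ehhadh*, had a log2 fold change of -0.22 (adjusted p = 0.326). The thiolases *Acaa1a* and *Acaa1b* had ones of -0.01 and -0.19, and *Acaa1a* became 0.15 with scaling by library totals alone. *Decr2* had one of 0.03, which became -0.06 without mouse 9121. Of the 50-base stretches of *Acaa1b*, 39.6% also occur in transcripts of other genes, among which *Acaa1a* shares the most. Reads common to both may be missing from their counts.

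*Abcd2* (chr15:91145871-91191799, minus strand), a transporter of very long-chain acyl-CoA into peroxisomes, was at 0.648, 4.52 and 3.22 against 0.311 and 0.515 normalized CPM, from 11, 76 and 61 against 5 and 9 counts. Mouse 8637 lay next to the wildtype mice and the other *Fnip1* null mice far above them, a 6.63-fold higher mean (log2 fold change 2.73, SE 0.901, adjusted p = 0.142). In edgeR's exact test its adjusted p-value was 0.0289. Without mouse 8637 the log2 fold change was 3.19 (adjusted p = 0.0089), and without mouse 9121 it was 2.61 (adjusted p = 0.193). *Abcd2* passed the filter on low counts through its *Fnip1* null counts alone, so these p-values are no support for a difference. White adipocyte markers were high in mice 9210 and 9121, summing to 24.69, 254.9 and 109.4 against 21.25 and 32.09 normalized CPM over 8 genes. Of these, *Adipoq* was at 0.589, 22.1 and 8.98 against 0.497 and 1.32. All 5 of the 8 that could be tested had a positive log2 fold change, and none passed an FDR of 5%. Their part in the *Abcd2* values was not tested.

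Ketone body use was represented by *Bdh1*, the mitochondrial beta-hydroxybutyrate dehydrogenase, and *Oxct1*, which transfers CoA to acetoacetate. *Bdh1* (chr16:31422280-31458901, plus strand) was at 159, 137 and 223 against 264 and 274 normalized CPM. All *Fnip1* null mice lay below both wildtype mice, with mouse 9121 nearest to them, and the means were 173 ± 44.4 (SD, n = 3) and 269 ± 7.29 (SD, n = 2), a 1.56-fold lower mean (log2 fold change -0.64, SE 0.2, adjusted p = 0.131). Without mouse 9121 the log2 fold change was -0.86 and passed an FDR of 5% (adjusted p = 0.0315). *Oxct1* was at 2160, 1850 and 2020 against 2220 and 2280, without overlap and with a log2 fold change of -0.17 (adjusted p = 0.601).

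Levels of different genes were compared per exon length as normalized RPKM (counts per kilobase of exon, scaled to library size like CPM). Averaged over the 5 mice, *Oxct1* was highest at 597 RPKM, followed by *Acadm* at 515, *Etfb* at 437, *Hadh* at 379 and *Etfa* at 345. Neighbours in this order overlapped over mice. *Oxct1* ran from 525 to 646 RPKM and *Acadm* from 356 to 674, *Etfb* from 413 to 490, *Hadh* from 309 to 452 and *Etfa* from 307 to 389. The order also depends on the transcripts used for length. With the exons of all annotated transcripts, the highest genes were *Oxct1* (569), *Etfb* (335), *Ehhadh* (293), *Acadm* (269) and *Etfa* (262). The lowest levels were those of *Abcd2* (0.333 RPKM), *Cpt1c* (0.479) and *Cpt1b* (2.01), 3 of the 4 genes with the largest positive log2 fold changes. *Acaa2*, the other gene among these 4, was at 228, 296 and 276 RPKM in *Fnip1* null and 162 and 174 in wildtype mice.

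**Figure D3:**
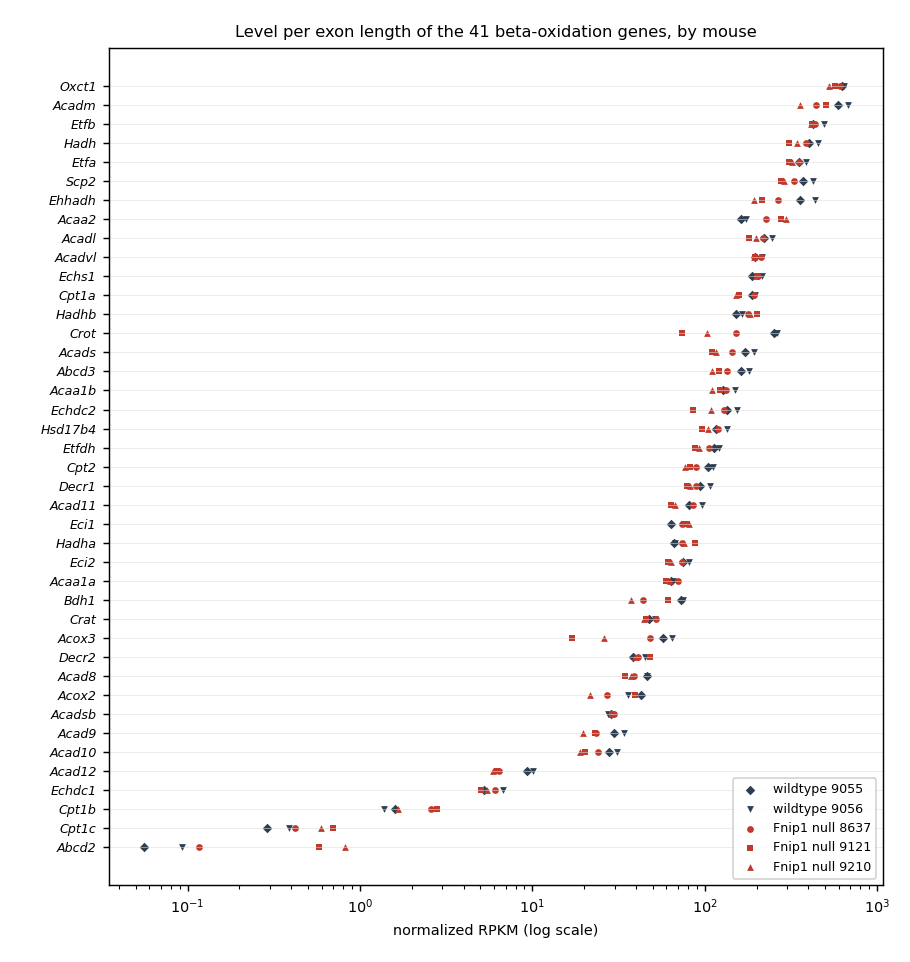
Normalized RPKM on a log axis for the 41 beta-oxidation genes in each mouse, ordered by the mean over the 5 mice (dark symbols wildtype, red symbols *Fnip1* null). Means over the 5 mice run from 0.333 RPKM for *Abcd2* to 597 for *Oxct1*, and single mice go beyond them. Within most genes the 5 mice lie close together compared with the range over all genes.

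The 3 *Fnip1* null mice did not deviate equally. The median log2 ratio of the 41 genes to the wildtype mean was -0.07 in mouse 8637, -0.30 in 9210 and -0.27 in 9121, against -0.08 and 0.07 in the wildtype mice themselves. The wildtype values are taken from the mean of those same mice, so they mirror each other and are no independent range. Among the 32 genes with a negative log2 fold change, mouse 8637 was the *Fnip1* null mouse nearest to wildtype in 27 (84.4%, against 57.7% of all negative genes tested), and among the 9 positive ones it was nearest in 7 (77.8%, against 56.8%). For the dehydrogenases the medians were -0.27, -0.52 and -0.44, for the peroxisomal genes -0.08, -0.34 and -0.35, and for the later mitochondrial steps 0.14, 0.17 and 0.34. The exceptions to the order included *Bdh1*, *Acadm* and *Acox2*, in which mouse 9121 lay nearest to wildtype. Without mouse 8637, 29 genes were lower and 8 higher without overlap, against 34.3% and 34.2% of all genes, and without mouse 9121 the numbers were 21 and 7, against 27.1% and 26.5%. Without mouse 9121, 32 of the 41 log2 fold changes were still negative, with a median of -0.18.

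**Figure D4:**
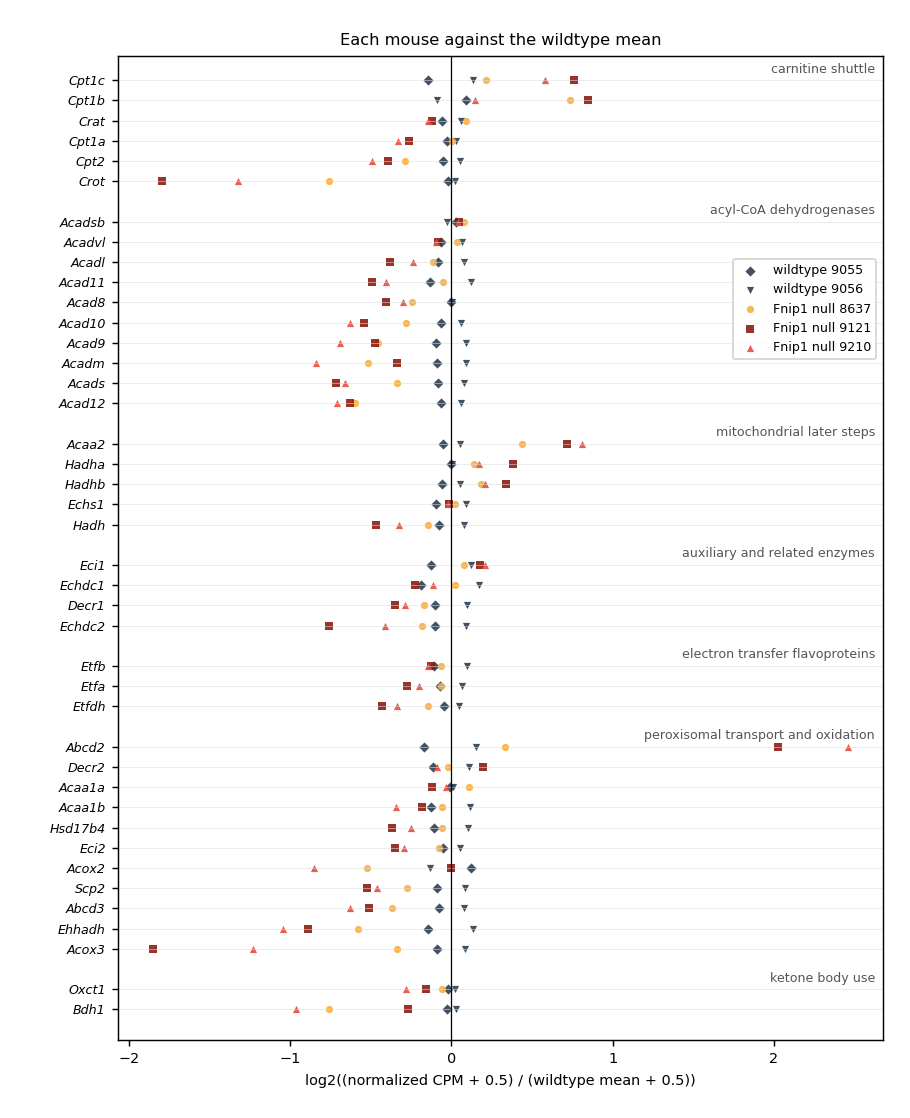
Log2 ratio of each mouse to the wildtype mean for the 41 beta-oxidation genes, computed from normalized CPM after adding 0.5 to both. Mouse 8637 is the *Fnip1* null mouse nearest to wildtype in most rows. Its median is -0.07, against -0.30 in 9210 and -0.27 in 9121. The wildtype medians of -0.08 and 0.07 are ratios to the mean of those same mice, so they are no independent range.

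Markers of the tubule and of other cell types also differed between the mice. Of 14 proximal tubule markers, 12 had a negative log2 fold change, with a median of -0.33 and none past an FDR of 5%. Without overlap, 6 lay below and 2 above wildtype, against 23% and 22.9% of all genes tested. Those above were *Slc5a2* (469, 425 and 365 against 340 and 359) and *Slc5a12* (722, 572 and 457 against 398 and 356). The median log2 ratio of the 14 markers to wildtype was -0.17, -0.43 and -0.49 in mice 8637, 9210 and 9121. Their summed level was 34260, 21740 and 20110 normalized CPM against 49100 and 54360. Much of that sum was *Kap*, the kidney androgen-regulated protein, at 13600, 5430 and 4840 against 26800 and 29300. The part of sex in the *Kap* values was not tested. All 6 collecting duct markers lay above wildtype without overlap (22.9% of all genes tested), summing to 645.9, 894 and 864.3 against 492.4 and 495.1, with none past an FDR of 5%. All 5 podocyte markers also lay above without overlap, summing to 658.9, 773.2 and 698.4 against 370.4 and 367.1, with *Nphs1* and *Synpo* among those past an FDR of 5%. Without mouse 9210 the adjusted p-values of *Nphs1* and *Synpo* were 0.132 and 0.128, and without 9055 or 9056 they were 0.213 and 0.491. Endothelial markers had positive log2 fold changes in 5 of 5 genes, with a median of 0.65 and 2 without overlap, and summed to 251.5, 289.7 and 337 against 237.5 and 140.3. Markers of the thick ascending limb and distal tubule had positive ones in 6 of 7, with a median of 0.27 and 3 without overlap, and summed to 8375, 8622 and 12090 against 8786 and 7893. Leukocyte markers had positive log2 fold changes in 10 of 11 genes tested, with sums of 318, 409.9 and 752.1 against 321.9 and 223.1. No endothelial, distal or leukocyte marker passed an FDR of 5%. In the same libraries the 41 beta-oxidation genes summed to 14150, 12210 and 12670 normalized CPM against 15420 and 16910. The part of these other cells in the beta-oxidation values was not tested.

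The regulators of the pathway, 14 genes for PPARs, their partners and coactivators, had 4 positive and 10 negative log2 fold changes with a median of -0.16, and none passed an FDR of 5%. *Pparg*, the fat cell PPAR, had the largest log2 fold change among them, 0.85, at 1.65, 3.57 and 3.64 against 1.93 and 1.37 normalized CPM (adjusted p = 0.257). *Ppara*, the receptor known to drive many fatty acid oxidation genes, was named after its values were seen and was at 286, 200 and 189 against 266 and 266 (log2 fold change -0.24, adjusted p = 0.45). *Ppargc1a*, a coactivator of mitochondrial biogenesis also named after its values were seen, was at 158, 152 and 128 against 122 and 103 (log2 fold change 0.37, adjusted p = 0.151). The groups overlapped for *Pparg* and *Ppara* and not for *Ppargc1a*.

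Genes listed here as other PPARA targets did not share one direction, with 9 positive and 14 negative log2 fold changes among 23 tested of 26 listed and a median of -0.13. The most negative, *Cyp4a12a* (-2.92), was at 40.3, 7.79 and 4.7 against 100 and 164 normalized CPM. It was named after its values were seen, and the part of sex in them was not tested. *Cyp4a14*, a fatty acid omega-hydroxylase, rose in *Fnip1* null tissue, at 245, 458 and 470 against 23.6 and 48 normalized CPM (log2 fold change 3.45, adjusted p = 0.0411), and was the only gene of the pathway lists past an FDR of 5%. Its adjusted p-value was 0.166, 0.213 and 0.491 without mouse 9210, 9055 or 9056, and its log2 fold change stayed between 3.02 and 4.05 with any mouse left out. Every *Fnip1* null mouse lay above both wildtype mice for *Cyp4a14*. The part of PPARA in the values of these genes was not tested.

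Genes of fatty acid activation and entry and of the malonyl-CoA brake had 8 positive and 6 negative log2 fold changes, with a median of 0.18. *Acsl6*, an acyl-CoA synthetase, had the largest, 2.65, at 2.95, 1.49 and 1.85 against 0.373 and 0.286 normalized CPM (adjusted p = 0.0689). It rested on 50, 25 and 35 against 6 and 5 counts and passed the filter of 10 counts through the *Fnip1* null mice alone, so its size is no measure of the list. *Acacb*, which makes the malonyl-CoA that inhibits carnitine palmitoyltransferase at mitochondria, was at 88.2, 95.8 and 116 against 58.5 and 48.5 (log2 fold change 0.90, adjusted p = 0.0635). *Mlycd*, which removes malonyl-CoA, was at 77.3, 63.5 and 64.1 against 91.5 and 103 (log2 fold change -0.51, adjusted p = 0.0903). *Acacb* and *Mlycd* were named after their values were seen, and neither passed an FDR of 5%.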

How the data were processed

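RNAseq libraries of kidney cortical tissue from 3 *Fnip1* null and 2 wildtype mice were made and sequenced by the authors, who aligned the reads to mm10 with TopHat2 2.1.0 and made counts for each gene symbol using HTSeq 0.6.1 (versions per the submitters' processing notes). The authors deposited raw counts, not normalized. Whether strand was used in counting is not given in the sources used here. Rows of reads not assigned to a gene were left out of library sizes. They were, of all entries in a mouse's file, 9.91 to 10.8% for no feature, 28.3 to 31.4% for alignments that were not unique and 0.741 to 0.803% for ambiguous reads.

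The analysis used edgeR 4.0.16 with limma 3.58.1 under R 4.3.3. Genes were left out where more than 2 mice had fewer than 10 counts, after the study's rule on low counts, for which the minimum was set here. Libraries were scaled by TMM (factors from 0.9142 to 1.091), and genotypes were compared with glmQLFit (its current method) and glmQLFTest, with Benjamini-Hochberg adjustment over 13874 genes. RPKM was computed from normalized CPM and the exon length of basic GENCODE M21 transcripts on GRCm38, matched by symbol for 41 of 41 genes. Correlations between mice of 1 genotype were 0.974 to 0.993, and all same-genotype pairs differed by more than sampling noise. Alternatives were edgeR's exact, likelihood ratio and legacy quasi-likelihood tests, DESeq2 1.42.0, other scalings, filters and thresholds, and leaving out each mouse.

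The members, roles, marker and pathway lists were chosen with earlier results of these data known, so no test of a list was made. Values per mouse were given for genes past an FDR of 5%, for those without overlap and an absolute log2 fold change of at least 0.5, for the 5 largest changes in each direction and for the 5 highest RPKM, and pathway genes were named if past an FDR of 5% or largest in their list among genes averaging 1 normalized CPM or more. Other single genes were added after their values were seen, and some genes are not reported here. SE is that of the log2 fold change, from its test statistic.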

Additional observations from a re-analysis of the deposited data

How the results depend on the processing

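No paired analysis was possible because the mouse numbers are not shared between the genotypes. The count of beta-oxidation genes past an FDR of 5% was 0 with edgeR's quasi-likelihood test, also with RLE, upper quartile or library-total scaling, when genes needed 1 CPM in 3 mice (which left out *Abcd2*) and at a change of at least 2-fold. It was 8 with the exact and 8 with the likelihood ratio test of edgeR (2 higher and 6 lower in each), 13 with DESeq2 (2 and 11), 1 with the legacy quasi-likelihood method and 1 without a filter (*Acad12*, lower, in both), and 7 at an FDR of 10% (1 and 6). Leaving out 1 mouse gave 0 to 17 (0 to 2 higher and 0 to 15 lower), the highest without mouse 8637. Leaving out a mouse in the exact test, an alternative added after seeing the data, gave 17 without 8637 (2 and 15) and 9 without 9121 (2 and 7). All genes called numbered 94 with the quasi-likelihood test, 1362, 1472 and 1432 with the exact, likelihood ratio and DESeq2 tests, 2776 without 8637 and 195 without 9121. The median of the 41 genes was -0.24, and -0.08 with library totals alone, where the median of all genes was 0.17 and the difference between the medians again -0.24. Leaving out 1 mouse gave medians of -0.31 to -0.16. 

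Genes near zero changed sign. With library totals alone these were *Crat* (0.10), *Acadvl* (0.11), *Echs1* (0.16), *Echdc1* (0.06), *Etfb* (0.05) and *Acaa1a* (0.15), and with the upper quartile *Crat* (0.01), *Acadvl* (0.01), *Echs1* (0.06) and *Acaa1a* (0.05). Leaving out 1 mouse gave ranges of -0.13 to 0.00 for *Crat*, -0.11 to 0.02 for *Acadvl*, -0.09 to 0.09 for *Echs1* and -0.28 to 0.09 for *Echdc1* (highest without 9056), -0.07 to 0.04 for *Acaa1a* (highest without 9121) and -0.08 to 0.15 for *Decr2* (lowest without 9055). The exact test without 9121 gave 0.04 for *Acaa1a* and -0.06 for *Decr2*, and *Echs1* was at 0.00 with the CPM filter. The causes of these changes were not tested. With 1 wildtype mouse left, that mouse is assumed to vary like the *Fnip1* null mice.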

Other observations

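Genes of peroxisome biogenesis were listed together with *Cat*, *Pxmp2* and *Pxmp4*, which encode other peroxisomal proteins. This list, with none of the 41 in it, had a negative log2 fold change in 19 of 19 tested, with a median of -0.21 and a range of -0.56 to -0.02. The list as first drawn up also held *Pmp22*, which in mouse is peripheral myelin protein 22 and no peroxisomal gene, and it was left out after its log2 fold change of 0.33 was seen. With *Pmp22* the count was 19 of 20. For 12 of the 19 every *Fnip1* null mouse lay below both wildtype mice, and for 0 every one lay above, while over all genes tested 23% were below and 22.9% above. None passed an FDR of 5% in edgeR's quasi-likelihood test, and 9 had an unadjusted p-value under 0.05 (25.1% of all genes tested). *Pxmp4*, a peroxisomal membrane protein, had the largest log2 fold change, -0.56, at 101, 87.9 and 83.9 normalized CPM in *Fnip1* null mice 8637, 9210 and 9121 against 127 and 140 in wildtype mice 9055 and 9056 (adjusted p = 0.0738). The median log2 ratio of this list to wildtype was -0.18, -0.24 and -0.28 in the 3 *Fnip1* null mice, in the order above.

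Other enzymes of beta-, alpha- and branched-chain oxidation had a negative log2 fold change in 18 of 22 tested, with a median of -0.24. *Amacr*, the racemase that prepares branched chains for peroxisomal oxidation, had the largest, -1.58, at 281, 146 and 103 normalized CPM against 444 and 609 (adjusted p = 0.102). Its 3 *Fnip1* null values ranked in the same order as those of *Acox3* and *Crot*, with mouse 8637 nearest to wildtype and mouse 9121 farthest. *Hacl1*, which cleaves chains in alpha-oxidation and was named after its values were seen, lay on the other side, at 58.8, 102 and 141 against 51.5 and 56.7 (log2 fold change 0.90, adjusted p = 0.175).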
